A study of Sus scrofa with 30 samples.

Results

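Cerebral cortex of pigs that had lain in cardiac arrest for 5 min without any resuscitation (CA5) was compared with cortex of pigs at 0 min of arrest (CA0). The comparison rests on 6 of the 30 Affymetrix porcine arrays in the series, 3 arrays titled as 5 min of untreated arrest and 3 titled as controls, each array being a separate biological replicate per the titles. All pigs were of a Swedish triple breed, of both sexes and 12 to 14 weeks old. Per the notes for the series, they were anaesthetised with pentobarbital and ventilated, ventricular fibrillation was induced by an electric current, and potassium chloride was injected before the brain was taken. The treatment notes describe the CA0 brains as taken straight after the arrest, and the titles call them controls, so by those notes CA0 shares the anaesthesia and the induced arrest with CA5 and is not cortex of an undisturbed animal. The labels do not settle whether every CA0 pig fibrillated before the brain was taken. Set beside the pair, where a value of CA5 needed a reference, were cortex after 20 and 30 min of untreated arrest (CA20 and CA30, 3 arrays each) and cortex taken 30 min after return of spontaneous circulation (SAL30, 3 arrays). The SAL30 pigs had 12 min of arrest and 8 min of chest compressions, then a countershock, and received saline at 55 mL/kg/h. Where the other 24 arrays are cited, they are CA20, CA30, SAL30, 6 arrays of the same saline treatment at 60 and 180 min of restored circulation, and 9 arrays of pigs given the saline with methylene blue at 7.5 mg/kg/h and sampled at 30, 60 and 180 min. The labels name the tissue as cortex without a region, and no step separates its cell types. Fewer cells of a type and less RNA per cell therefore cannot be told apart.

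When the heart stops, the brain loses oxygen and glucose at once, its small store of ATP runs down, the ion pumps stall, potassium leaves the neurons, glutamate is released and acid builds up. Transcripts that need no newly made protein for their induction, the immediate early genes, are the first known to be transcribed after such a stimulus, whereas heat shock and hypoxia genes follow once misfolded protein or stabilised hypoxia factors have accumulated. Without blood flow neither substrate nor leukocytes are carried into the tissue.

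The 6 arrays were alike in brightness and in overall profile. Median intensity was between 88.0 and 96.2 arbitrary units, against 87.0 to 108 over all 30 arrays, and no arrays held identical values. The correlation of log2 values between arrays ran from 0.968 to 0.976 within a group and from 0.968 to 0.980 between the groups. The log2 ratio of 3' to 5' signal of the actin and GAPDH control transcripts, a sign of RNA and labelling quality, was 1.98, 2.15 and 2.40 in CA0 and 1.72, 1.85 and 2.11 in CA5, so that the groups overlapped. The difference in means was -0.28 (two-sided exact permutation test p = 0.2, where 3 against 3 arrays can give no less than 0.1). For GAPDH alone it was -0.32 (exact p = 0.1), and for actin alone -0.25 (exact p = 0.4). The part of this ratio in the differences below was not tested. Markers of brain tissue were bright, with neuronal genes such as SNAP25 (9765 to 13011 units), the myelin gene MBP and the astrocyte gene GFAP among the brightest probe sets. That the tissue was cortex rests on the labels. The Y-linked EIF1AY gave 376 to 638 units on all 6 arrays. On 6 of the other 24 arrays it read below 100 units, and the lowest of them was 0.80.

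No transcript passed the test after 5 min of arrest. With values on the log2(intensity + 16) scale, limma called 0 of 16799 probe sets at a Benjamini-Hochberg adjusted p under 0.05 (0.0%), and 317 had an unadjusted p under 0.05 (1.89%), 173 of them higher in CA5 (1.03%) and 144 lower (0.857%). Every group difference described from here on is therefore one that did not pass, unless stated otherwise, and is given by its values. The adjusted p was 0.086 for the first probe set in order of p, 0.364 for the second and at least 0.9999 from the third onward. The 3 CA5 arrays and the 3 CA0 arrays did not overlap for 1200 probe sets (7.14%), with CA5 above for 634 (3.77%) and below for 566 (3.37%). If the groups did not differ, a share of about 0.05 would fall under the unadjusted threshold and about 0.1 would not overlap. The shares found, 1.89% and 7.14%, were each below that. A log2 difference above 1, a 2-fold difference on this scale, was measured for 22 probe sets (0.131%), and one below -1 for 13 (0.0774%).

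The arrays were precise enough to bound most differences. The median standard error of a log2 difference was 0.21, which gives a median 95% half-width of 0.44, or 1.36-fold. For 15268 of the 16799 probe sets (90.9%) the whole 95% interval lay between a 2-fold decrease and a 2-fold increase. The differences centred on 0.0062, with 90% of the probe sets lying between -0.32 and 0.36. Changes of 2-fold or more on this log2 scale were thus outside the interval for most of the probe sets tested, while smaller ones could lie within it. The constant added before the log shrinks the fold of dim probe sets, so their change in intensity is bounded less tightly. A dim GGA2 probe set, Ssc.19325.1.S1_at, had mean intensities of 4.02 units in CA0 and 40.0 in CA5, but a log2 difference of 1.48. Probe sets under the filter were not tested.

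**Figure D1:**
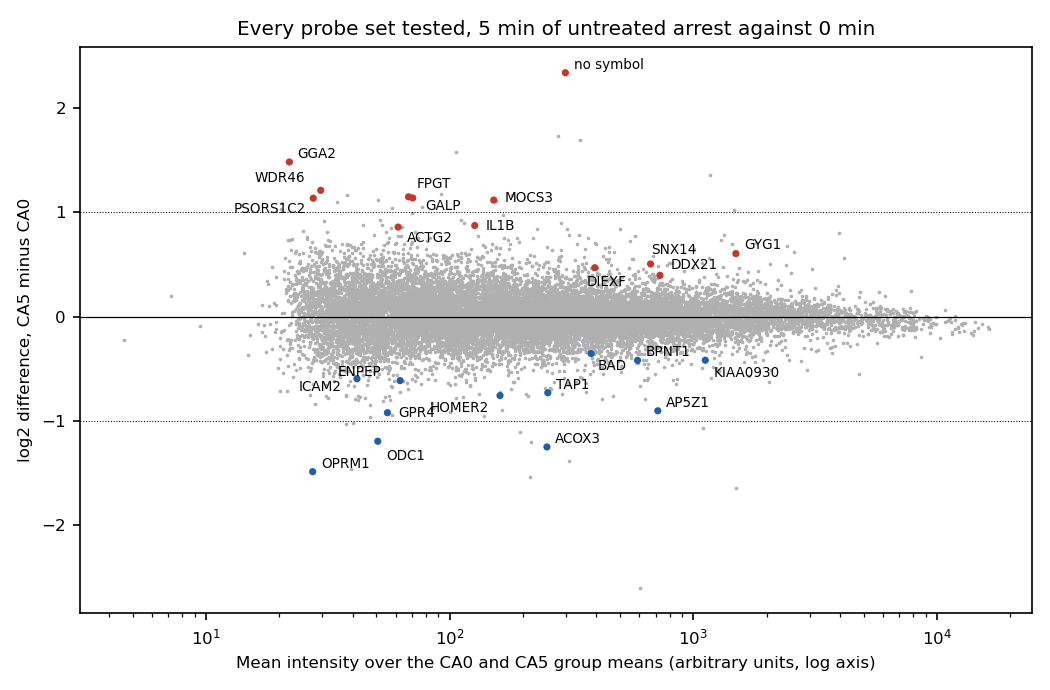
Log2 difference between CA5 and CA0 (vertical axis) against mean intensity (horizontal log axis, arbitrary units) for the 16799 probe sets tested, with dotted lines at 2-fold. Named dots are the 12 genes higher (red) and the 12 lower (blue) in CA5 with the smallest p among those whose arrays do not overlap, and the probe set of the smallest p of all, at 2.34.

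The probe set with the smallest p of all, Ssc.17849.1.A1_at, carries no gene symbol. It read 35.1, 41.1 and 279 units in CA0 and 329, 588 and 519 in CA5, a difference of 2.34 ± 0.41 on the log2 scale (SE from limma, 3 arrays a group, adjusted p = 0.086). A pair of CA0 arrays stood far below the third, which itself came close to the dimmest CA5 array. On the 24 arrays of the other 8 groups it ran from 186 to 692 with a median of 369, so those 24 were all brighter than the 2 dim CA0 arrays, and 6 of them lay within the wide CA0 range. Without CA0 replicate 3 the log2 difference was 3.16 (adjusted p = 7.4e-07), and with a pseudocount of 1 in place of 16 it was 2.63 (adjusted p = 0.0432).

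GGA2 encodes an adaptor that sorts cargo from the trans-Golgi network towards endosomes. Its dim probe set Ssc.19325.1.S1_at read 2.53, 2.91 and 6.62 units in CA0 and 41.2, 34.0 and 44.7 in CA5, a log2 difference of 1.48 ± 0.30 (SE, n = 3, limma adjusted p = 0.364). The groups did not overlap, and the 24 other arrays, at 12.7 to 73.9, all lay above the highest CA0 array. CA0 lay under the filter intensity of 29.5, so the probe set was tested only because other arrays were brighter. Their place above CA0 is therefore no independent support. The difference passed with a pseudocount of 1 (3.11, adjusted p = 0.00618), a setting that gives more weight to values as low as those of CA0. The second GGA2 probe set, Ssc.1578.1.S1_at, was brighter and gave 535, 539 and 554 in CA0 against 671, 458 and 435 in CA5, a log2 difference of -0.08 ± 0.15. The 2 probe sets of the gene thus disagreed, and GGA1 and GGA3, the other family members, had log2 differences of -0.21 ± 0.17 and 0.045 ± 0.16.

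IL1B, the cytokine interleukin 1 beta, is made by microglia and released in inflammation. It read 89.4, 78.2 and 80.2 units in CA0 and 202, 205 and 106 in CA5, a log2 difference of 0.87 ± 0.23 (SE, n = 3, limma unadjusted p = 0.000823, adjusted p = 0.9999). All CA5 arrays were above CA0, with replicate 3 nearest to it. Without any single array the log2 difference stayed between 0.73 and 1.15. Of the 24 other arrays, 1 lay within the CA0 range and 17 within the CA5 range. A second, dim IL1B probe set below the filter gave 16.5, 19.1 and 11.6 in CA0 and 50.8, 21.0 and 4.37 in CA5, where the groups overlapped. Of the 8 tested genes of interleukin 1 processing and signalling, IL1B alone had an unadjusted p under 0.05, against 1.03% of all probe sets on the higher side. The adaptor MYD88 had a log2 difference of -0.28 ± 0.23 and the kinase IRAK1, at 611, 615 and 600 units in CA0 and 553, 561 and 533 in CA5, one of -0.15 ± 0.12.

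The other genes on the higher side belonged to no single process. GYG1, glycogenin, which primes the synthesis of glycogen, read 1295, 1056 and 1122 units in CA0 and 2592, 1380 and 1527 in CA5, a log2 difference of 0.60 ± 0.16 that was 0.33 without the bright CA5 replicate 1. FPGT, an enzyme of fucose salvage, read 38.7, 19.9 and 41.3 in CA0 and 53.5, 74.9 and 179 in CA5, and 0 of the 24 other arrays lay in the CA0 range. MOCS3, which acts in molybdenum cofactor synthesis, read 101, 80.7 and 78.5 in CA0 and 260, 266 and 125 in CA5. DDX21, a nucleolar RNA helicase, read 709, 459 and 735 in CA0 and 925, 759 and 791 in CA5, and SNX14, a sorting nexin, had a log2 difference of 0.50 ± 0.17. GALP, galanin-like peptide, read 35.3, 24.9 and 39.1 in CA0 and 62.0, 207 and 54.9 in CA5, and its log2 difference of 1.14 ± 0.40 was 0.61 without CA5 replicate 2. DIEXF, a nucleolar protein of ribosome synthesis, read 354, 296 and 337 in CA0 and a narrow 464, 454 and 463 in CA5. WDR46, PSORS1C2 and the smooth muscle actin gene ACTG2 each had a second probe set that did not share the difference, with log2 values of -0.15, -0.08 and 0.077 beside 1.21, 1.14 and 0.86.

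On the lower side the smallest p belonged to AP5Z1, a subunit of an adaptor complex of late endosomes. It read 893, 855 and 1032 units in CA0 and 690, 461 and 360 in CA5, a log2 difference of -0.90 ± 0.22 (SE, n = 3). GPR4, a receptor that senses extracellular protons and is found on endothelium, read 97.5, 74.1 and 61.7 in CA0 and 36.4, 39.1 and 24.5 in CA5, a log2 difference of -0.92 ± 0.24. The CA5 values of GPR4 were low for the series, since 1 of the 24 other arrays lay in their range and the rest above it. TAP1, which carries peptides to MHC class I, read 384, 222 and 359 in CA0 and 203, 202 and 147 in CA5, and 20 of the other arrays lay in the CA0 range and 1 in that of CA5. OPRM1, the mu opioid receptor, was dim in both groups, with 10.7, 58.0 and 81.6 in CA0 and 5.68, 6.64 and 1.79 in CA5. None of the 24 other arrays was as low as the CA5 arrays of OPRM1, and 22 lay within its CA0 range. With CA5 under the filter intensity of 29.5, OPRM1 too was tested only through brighter arrays elsewhere.

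The remaining genes of the lower 12 differed by less, or on 1 probe set only. ODC1, the first enzyme of polyamine synthesis, read 97.8, 64.2 and 60.2 units in CA0 and 37.9, 41.5 and 2.66 in CA5 on a dim probe set (log2 difference -1.20 ± 0.32), but its brighter one gave -0.08 ± 0.13. HOMER2, a scaffold of the postsynaptic density, gave -0.76 ± 0.25 on the probe set with the smallest p and -0.17 on each of the other 2. ACOX3, an oxidase of peroxisomal fatty acid breakdown, read 313, 418 and 317 in CA0 and 88.1, 105 and 264 in CA5. ICAM2, an adhesion molecule of endothelium, gave 58.6, 47.8 and 53.7 in CA0 and 29.8, 26.2 and 33.8 in CA5. ENPEP, an aminopeptidase that cleaves angiotensin, BPNT1, a nucleotidase, KIAA0930 and the cell death gene BAD had log2 differences of -0.61, -0.42, -0.42 and -0.35.

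The same probe sets can be read on the other arrays of the series, which entered the choice of genes only through the spread of the fit and the filter on dim probe sets. Of the 12 genes higher in CA5, the mean log2 value of the 6 CA20 and CA30 arrays lay nearer to CA5 for 7 and nearer to CA0 for 5, among them IL1B, GYG1 and GALP. Over all 24 other arrays the counts were 8 and 4. Of the 12 genes lower in CA5, 4 lay nearer to CA5 and 8 nearer to CA0 in CA20 and CA30, and 3 and 9 over all 24 arrays. GPR4, ODC1, TAP1, KIAA0930, OPRM1, ICAM2 and ACOX3 were nearer to CA0 both ways.

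**Figure D2:**
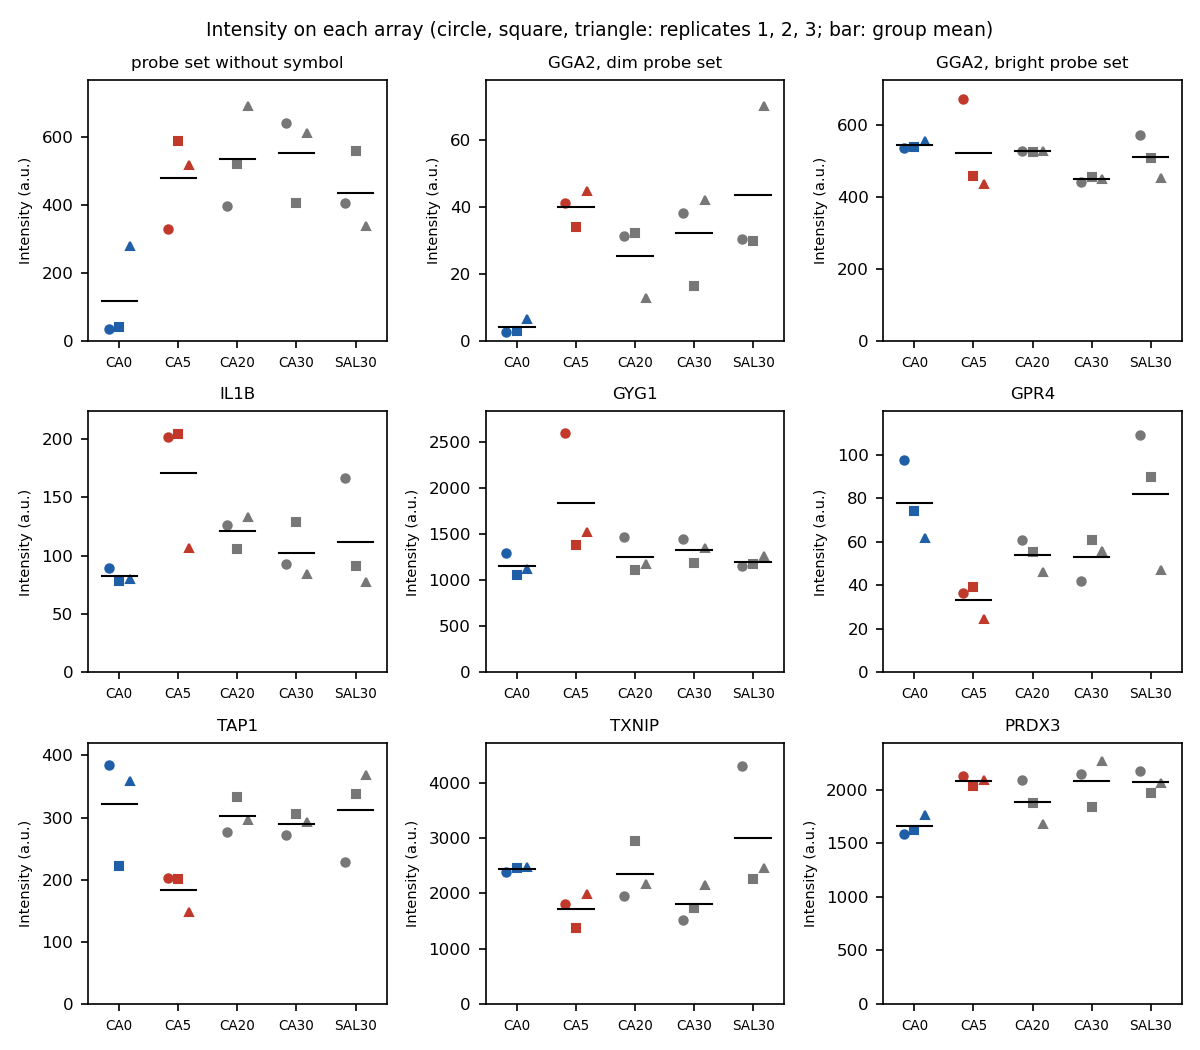
Intensity (vertical axes, arbitrary units, from 0) of 9 probe sets on each array of CA0 (blue), CA5 (red), CA20, CA30 and SAL30 (grey), with markers for replicates 1, 2 and 3 and a bar at the mean of 3 arrays. The dim GGA2 probe set is near 0 on all CA0 arrays while the bright one overlaps, IL1B is at 202, 205 and 106 units in CA5, and GPR4 and TAP1 have their lowest group mean in CA5.

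The largest differences by size, looked up after their values were seen, are given as values only. Of the 14 probe sets with the largest absolute log2 difference, the groups were apart for 7. Ssc.10606.1.S1_at, without a symbol, had the largest of all at -2.60 ± 1.24, and read 929, 1040 and 782 units in CA0 but 41.6, 789 and 60.9 in CA5. It ran as widely on the other 24 arrays, from 11.9 to 984 with a median of 565. RUFY3, which acts in neuronal polarity and transport, had 2 probe sets among the 14. Both showed the same order of the CA0 arrays, while the CA5 arrays lay close together and in another order. Its brighter one read 429, 2608 and 4309 in CA0 and 541, 527 and 536 in CA5 (-1.64 ± 0.83), and the other 93.5, 543 and 839 against 121, 125 and 136 (-1.38 ± 0.76). On the other 24 arrays the brighter one ran from 359 to 4344 with a median of 2041. The water channel gene AQP3 (68.5, 104 and 169 against 1265, 138 and 308) and the opioid peptide gene PDYN (32.4, 16.1 and 40.4 against 423, 32.2 and 94.4) were brightest on CA5 replicate 1, and without it their log2 differences went from 1.69 to 0.85 and from 1.58 to 0.72. On the other 24 arrays AQP3 ran from 59.8 to 987 with a median of 97.1, and PDYN from 21.4 to 796 with a median of 52.8. RNF13, a ubiquitin ligase, read 49.3, 140 and 129 in CA0 and 185, 280 and 885 in CA5, so that the groups were apart, and its 1.73 was 1.10 without CA5 replicate 3.

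Immediate early transcription factors did not pass after 5 min, and most measured members lay on the higher side. Of 15 tested, 0 passed, 10 had a log2 difference above 0 and the median was 0.12, against 51.5% above 0 and a median of 0.0062 over all probe sets. With 1 probe set per gene, as in the lists, 2784 of 5797 genes lay above 0 and the median was -0.0064. ATF3, a stress-induced factor of the ATF family, read 34.2, 39.5 and 23.9 units in CA0 and 118, 85.2 and 28.1 in CA5, a log2 difference of 0.81 ± 0.30 (SE, n = 3) and the only one of the 15 with an unadjusted p under 0.05. FOS, a subunit of AP-1, read 1605, 997 and 503 in CA0 and 2652, 2287 and 571 in CA5 (0.69 ± 0.41). In both genes CA5 replicates 1 and 2 were brighter than every CA0 array and replicate 3 lay among them. EGR1, a zinc finger factor of active neurons, read 2239, 936 and 750 against 1332, 2857 and 984 and overlapped throughout. CEBPD (224, 104 and 142 against 466, 133 and 183) had a log2 difference of 0.55 ± 0.34 that was 0.056 without CA5 replicate 1, and EGR4 read 243, 286 and 258 against 399, 495 and 237. JUN, the partner of FOS, lay on the other side at 2115, 1565 and 1750 against 1592, 1721 and 1159 (-0.29 ± 0.30). FOSB, JUNB and NR4A1 were not analysed here.

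The early effectors and feedback brakes, which follow or switch off the same signals, gave a like picture. Of 19 tested, 0 passed, 16 had a log2 difference above 0 and the median was 0.21. ZFP36, which destabilises cytokine mRNAs, read 299, 89.2 and 85.7 units in CA0 and 488, 297 and 106 in CA5 (0.84 ± 0.42). DUSP1, a phosphatase that ends MAP kinase signalling, read 880, 600 and 443 in CA0 and 1314, 964 and 549 in CA5 (0.51 ± 0.30). BTG2, an antiproliferative factor, read 114, 18.9 and 17.9 against 189, 86.2 and 19.0 (0.75 ± 0.49). CYR61, a matrix-associated signalling protein, read 70.7, 30.0 and 56.4 against 104, 86.6 and 54.7, and IER2 read 406, 208 and 159 against 504, 340 and 181. In ZFP36, DUSP1, BTG2 and IER2 alike, CA0 replicate 1 was the brightest of its group and CA5 replicate 3 the dimmest. BDNF, a neurotrophin induced by activity, differed in this: its dimmest CA5 array was replicate 1, with 98.3, 119 and 105 units against 51.1, 53.9 and 101 in CA0 (0.59 ± 0.25, unadjusted p = 0.0288). RGS2, GADD45A and MCL1 were the 3 with a log2 difference below 0.

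The order of arrays was shared by more early genes than by genes at large. Among the 34 early genes of both lists, CA0 replicate 1 was the brightest CA0 array for 18 (52.9%) and CA5 replicate 3 the dimmest CA5 array for 20 (58.8%), against 33.5% and 32.5% of all probe sets tested. CA0 replicate 3 was the dimmest CA0 array for 20 (58.8%, against 31.6%) and CA5 replicate 1 the brightest CA5 array for 16 (47.1%, against 33.8%), so that in both groups replicate 1 was most often the brightest and replicate 3 most often the dimmest. CA5 replicate 1 lay above all CA0 arrays for 17 of the 34, replicate 2 for 11 and replicate 3 for 6. These shares describe 6 animals and are no test. The log2 ratio of 3' to 5' signal rose from replicate 1 to replicate 3 in both groups. It was 1.98, 2.15 and 2.40 in CA0 and 1.72, 1.85 and 2.11 in CA5. Its part in the order of the early genes was not tested. With all arrays 2 of the 34 had an unadjusted p under 0.05 on the higher side, against 1.03% of all probe sets. Without CA5 replicate 3 there were 9 (background 1.11%) with a median of 0.34, and without CA0 replicate 1 there were 8 (background 1.42%), with 0 passing in either case. The other arrays mattered less: there were 2, 2, 2 and 1 without CA0 replicate 2, CA0 replicate 3, CA5 replicate 1 and CA5 replicate 2 (background 1.25%, 1.35%, 1.05% and 1.33%). The chemokine gene CCL4, from another list, read 187, 52.3 and 58.4 units in CA0 and 290, 208 and 44.2 in CA5. Replicate 1 was its brightest array in both groups and replicate 3 its dimmest in CA5, but in CA0 the dimmest was replicate 2.

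**Figure D3:**
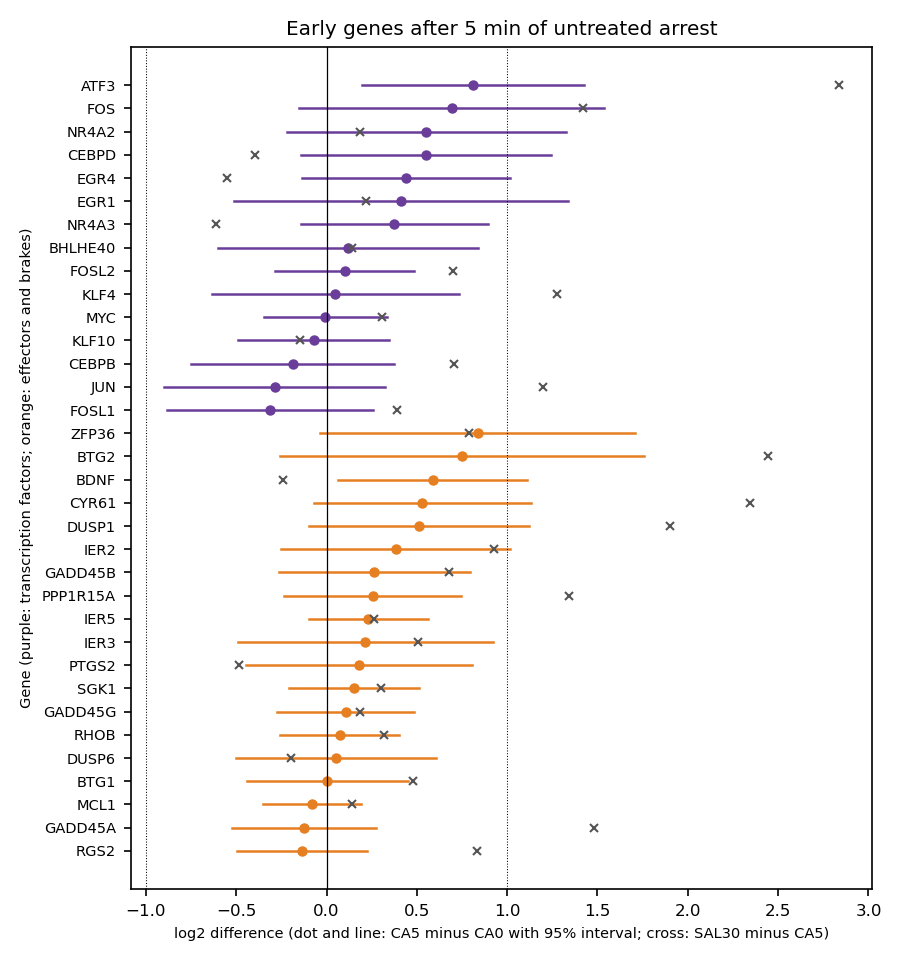
Log2 difference CA5 minus CA0 (dots, with 95% limma intervals as lines, horizontal axis) for the 34 early genes tested, transcription factors in purple and effectors and brakes in orange, with crosses for SAL30 minus CA5. For 22 of the 34 genes the interval stays between -1 and 1, and the intervals of ATF3 and BDNF lie above 0.

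The same genes were set beside SAL30, which differs from CA5 in arrest time, resuscitation and infusion together and shares CA5 with the comparison above. The 1 tested sex-linked gene, EIF1AY, had a log2 difference of -1.44 between SAL30 and CA5, which did not pass. It was -0.62 between the longer arrests and CA5. Sex was not in the model, and its part in these comparisons was not tested. Between SAL30 and CA5, 34 probe sets rose (0.202%) and 2 fell (0.0119%) by limma at adjusted p under 0.05, among them 7 of the 34 early genes, all higher. ATF3 stood at 643, 454 and 686 units in SAL30, a log2 difference from CA5 of 2.84 ± 0.30, DUSP1 at 4087, 2957 and 3139 (1.90 ± 0.30) and BTG2 at 725, 474 and 308 (2.44 ± 0.49). CYR61, PPP1R15A, GADD45A and RGS2 rose as well. The other 27 early genes did not pass, and 7 of the 34 had a log2 difference below 0. ZFP36 lay 0.79 ± 0.42 above CA5, while EGR4 (-0.55 ± 0.28), CEBPD (-0.40 ± 0.34) and BDNF (-0.24 ± 0.25) lay below it. The median log2 difference between SAL30 and CA5 was 0.31 for the immediate early transcription factors and 0.51 for the effectors and brakes. FOS, at 4648, 3675 and 4003 units, did not pass against CA5 (1.42 ± 0.41, adjusted p = 0.355). Of the genes on the higher side in CA5, DIEXF was 1 of the 2 that fell in SAL30 (-0.91).

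Between CA5 and the longer arrests the early genes did not pass in either direction. The comparison of the mean of CA20 and CA30 with CA5 called 1 probe set (0.00595%), Ssc.21096.1.S1_at, which has no symbol and rose from 235, 136 and 106 units in CA5 to between 357 and 747 on the 6 later arrays (log2 difference 1.58 ± 0.21, limma adjusted p = 0.00113). It read 130, 115 and 131 in CA0. The median log2 difference of the immediate early transcription factors was -0.30 in this comparison and that of the effectors -0.23, with 0 of 15 and 0 of 19 passing. FOS read 487, 735 and 691 units in CA30, all below CA5 replicates 1 and 2.

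**Figure D4:**
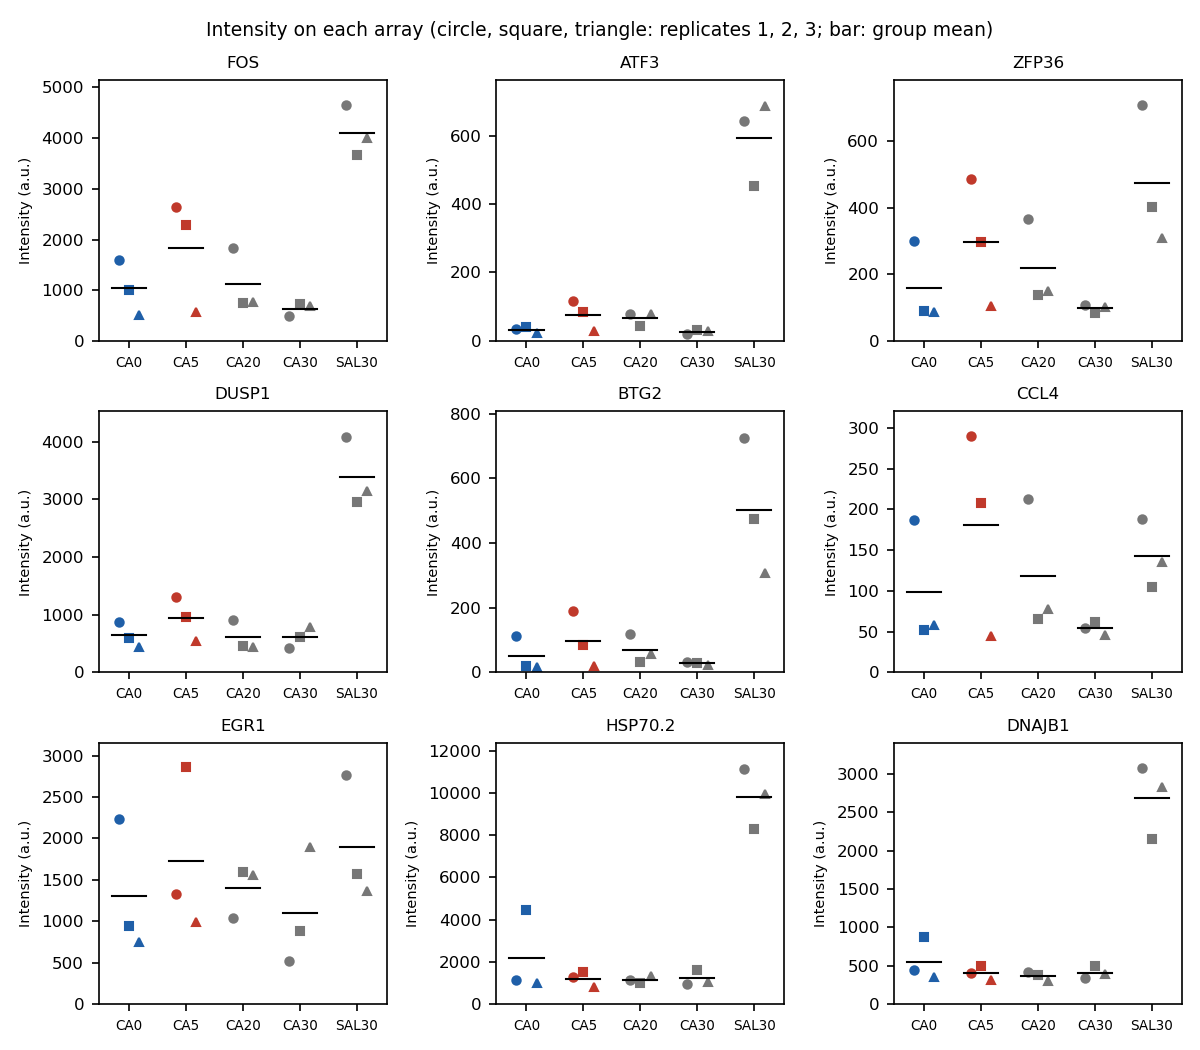
Intensity (vertical axes, arbitrary units, from 0) of 9 genes on each array of CA0 (blue), CA5 (red), CA20, CA30 and SAL30 (grey), with markers for replicates 1, 2 and 3 and a bar at the mean of 3 arrays. FOS, ATF3, ZFP36, DUSP1, BTG2 and CCL4 show CA5 replicate 3 near CA0, and HSP70.2 and DNAJB1 show CA0 replicate 2, at 4472 and 867 units, above the other CA0 and CA5 arrays.

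Heat shock genes did not pass at 5 min, and 1 control animal stood apart in them. Of 23 heat shock and cytosolic chaperone genes tested, 0 passed, 17 had a log2 difference below 0 and the median was -0.048. HSP70.2, the inducible HSP70 chaperone, read 1112, 4472 and 1000 units in CA0 and 1260, 1497 and 803 in CA5. Its other 2 probe sets showed the same array apart, with 3543 and 4449 units on CA0 replicate 2. DNAJB1, the co-chaperone of HSP70, read 436, 867 and 357 in CA0 and 398, 495 and 316 in CA5. CA0 replicate 2 was the brightest CA0 array for 17 of the 23 genes (73.9%), against 35.4% of all probe sets. Without it the log2 difference of HSP70.2 went from -0.57 to 0.12, that of DNAJB1 from -0.36 to 0.0066, and 18 of the 23 genes lay above 0, with a median of 0.036. HSPA6, a strictly inducible chaperone, was level at 138, 128 and 81.1 in CA0 and 103, 92.7 and 111 in CA5, and rose in SAL30 to between 2133 and 3602 units (4.54 ± 0.20 over CA5). HSPB1, a small heat shock protein, was the 1 gene of the 23 whose groups did not overlap, at 994, 1242 and 913 against 898, 883 and 721 (-0.32 ± 0.20), a share below the 7.14% of all probe sets.

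Energy and oxygen genes did not pass, and their intervals were narrow. All 25 tested genes of hypoxia and glycolysis had 95% intervals between a 2-fold decrease and a 2-fold increase on the log2 scale used, 0 passed, and the median was -0.068. VEGFA, a target of hypoxia factors, read 1337, 1025 and 877 units in CA0 and 1280, 896 and 1145 in CA5 (0.042 ± 0.16). The glucose transporters SLC2A1 and SLC2A3 had log2 differences of -0.09 ± 0.13 and 0.18 ± 0.15, and ADM and DDIT4, which respond to low oxygen, 0.35 ± 0.27 and -0.25 ± 0.19. Of 12 genes of ATP buffering and the energy sensor AMPK, 0 passed. PRKAA2, a catalytic AMPK subunit, had the smallest p at -0.69 ± 0.33, which came from CA0 replicate 2 (180, 709 and 165 against 145, 200 and 158) and was -0.044 without that array. Its fellow subunit PRKAA1 read 31.4, 22.0 and 11.4 against 29.7, 34.4 and 41.3 (0.47 ± 0.25).

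The 60 nuclear genes of the respiratory chain had a median of -0.011, 27 above 0 and 33 below, and 0 passed. NDUFA1, a subunit of complex I, read 2637, 2371 and 2423 units in CA0 and 1817, 2255 and 2253 in CA5 (-0.24 ± 0.10), and COX7A1, of complex IV, 910, 510 and 891 against 448, 422 and 592 (-0.61 ± 0.29). NDUFC1 and NDUFA5, also of complex I, lay on the other side at 0.29 ± 0.15 and 0.27 ± 0.14. None of the mitochondrially encoded genes sought had a probe set with its symbol. Ribosomal protein genes lay slightly below 0, with 44 of 56 below it, a median of -0.066, and all 56 intervals inside 2-fold. This count was 35 of 56 with quantile normalization and between 34 and 55 without single arrays.

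Among genes of oxidative stress defence, the groups did not overlap for TXNIP and PRDX3, 2 of 24, a share near the 7.14% of all probe sets. TXNIP, an inhibitor of thioredoxin whose mRNA follows glucose supply, read 2388, 2464 and 2480 units in CA0 and 1806, 1375 and 1989 in CA5 (-0.52 ± 0.21, unadjusted p = 0.0189). PRDX3, the mitochondrial peroxiredoxin, read 1583, 1625 and 1762 in CA0 and 2122, 2034 and 2093 in CA5 (0.33 ± 0.14, unadjusted p = 0.0224). Of the 24 tested genes 0 passed and 16 lay below 0. HMOX1, haem oxygenase, overlapped at 25.4, 87.1 and 65.5 against 68.9, 60.9 and 43.9. Of 11 genes of nitric oxide and cGMP signalling 0 passed, with the endothelial synthase NOS3 at 136, 146 and 121 against 144, 104 and 114.

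Transporters and receptors that meet the ionic shifts of arrest were few on the array. All 6 tested ion pumps, exchangers and water channels had a log2 difference above 0, with 0 passing. The sodium pump subunits ATP1B1 and ATP1B3, at 0.04 and 0.11, and the calcium pump ATP2A2, at 0.06, were bright and close between groups. The bicarbonate transporter SLC4A4 read 51.5, 31.0 and 10.5 units in CA0 and 59.4, 57.2 and 43.5 in CA5 (0.66 ± 0.53). Without single arrays, 3 to 6 of the 6 were above 0. Of 8 acid, purine and potassium sensors, GPR4 alone had an unadjusted p under 0.05, against 0.857% of all probe sets on the lower side. Of 8 genes of glutamate and GABA transmission, GLUL, the glutamine synthetase of astrocytes, read 8700, 10107 and 10524 units in CA0 and 6785, 7363 and 8190 in CA5, and ABAT, which breaks down GABA, 46.7, 49.6 and 41.9 against 30.8, 23.8 and 28.4. Both pairs of groups were apart, 2 of the 8 genes on the lower side against 3.37% of all probe sets. Neither gene passed (-0.39 ± 0.24 and -0.51 ± 0.30).

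The 21 tested clathrin adaptors and ARF GTPases centred on 0.013 with 0 passing. They include GGA2 by its bright probe set and do not include AP5Z1. IGF2R, a receptor carried by the GGA adaptors, read 41.8, 38.3 and 30.8 units in CA0 and 57.9, 50.3 and 69.2 in CA5 (0.50 ± 0.25), the 1 of the 21 whose groups were apart on the probe set that stood for the gene, against 7.14% of all probe sets. Of 14 cytokine, adhesion and NF-kB genes, IL1B was higher and TNFRSF1A, a receptor of tumour necrosis factor, lower without overlap, 2 of 14 against 7.14% of all probe sets (242, 228 and 239 against 207, 177 and 206). CXCL2 and PTGS2, which inflammation induces, overlapped, and IL6 lay below the filter at 1.18 to 14.5 units.

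**Figure D5:**
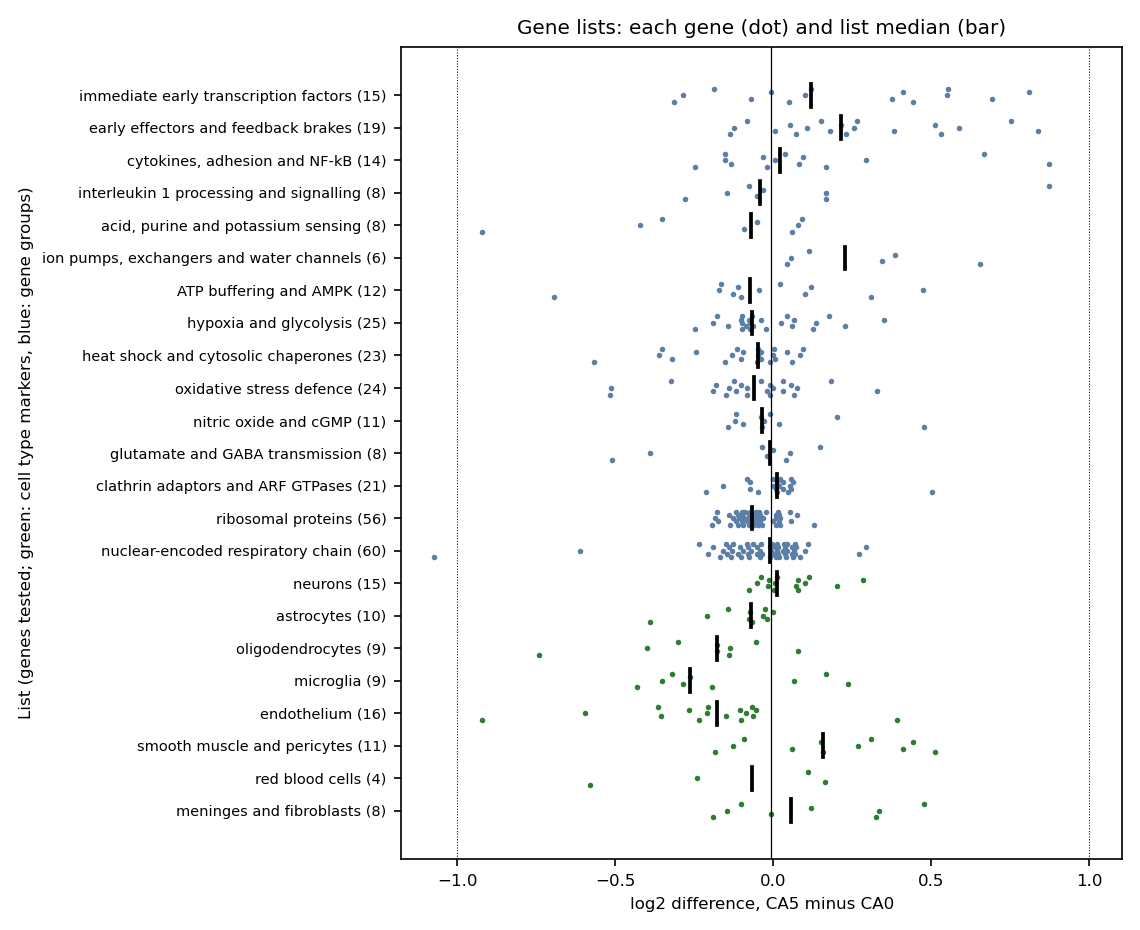
Log2 difference CA5 minus CA0 (horizontal axis) of each tested gene (dots) in 15 gene groups (blue) and 8 lists of cell type markers (green), with black bars at the medians, a line at the median of all genes and dotted lines at 2-fold. Bars lie between -0.26 for microglia and 0.23 for ion pumps, and single dots reach -0.92 for GPR4, 0.87 for IL1B and -1.07 for ATP5I.

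None of the markers of the vessel wall passed. Of 16 tested endothelial markers 15 had a log2 difference below 0, with a median of -0.18 (17 of 22 and -0.13 over all their probe sets), and their summed intensity was 4391 to 5009 units in CA0 and 3995 to 4257 in CA5. GPR4 and ICAM2 were the 2 with an unadjusted p under 0.05. The remaining 14 were smaller, such as CLDN5, a tight junction protein, with 364, 445 and 511 units against 293, 316 and 415 (-0.35 ± 0.24), PECAM1 with -0.21 ± 0.18 and CDH5 with -0.06 ± 0.18. KDR and TJP1 lay below the filter. Without single arrays 13 to 15 of the 16 stayed below 0, and the median lay between -0.24 and -0.11.

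Smooth muscle and pericyte markers had 8 of 11 above 0 and a median of 0.16 on the brightest probe set of each gene, but 10 of 17 and a median of 0.013 over all their probe sets, so that no lean of the list held both ways. Their summed intensities, 4465 to 5939 units in CA0 and 5422 to 5967 in CA5, overlapped. The contractile genes ACTA2 (689, 564 and 751 against 905, 804 and 1183), CNN1 (93.3, 113 and 105 against 142, 168 and 132) and TAGLN (205, 174 and 208 against 257, 227 and 253) were the 3 of 11 whose CA5 arrays all lay above CA0, against 3.77% of all probe sets, with log2 differences of 0.51 ± 0.23, 0.44 ± 0.20 and 0.31 ± 0.21. The pericyte genes PDGFRB, RGS5 and ANPEP were the 3 below 0. The part of vessel content in the values of GPR4, ICAM2 and ACTG2 was not tested.

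Other cell types showed no group apart in their summed markers. Neuronal markers had a median of 0.012 over 15 genes, and their sum, 61859 to 73230 units in CA0 and 60565 to 79431 in CA5, overlapped. Astrocyte markers were all 10 below 0, with a median of -0.071 and GLUL and NDRG2 the 2 whose groups were apart (7.14% of all probe sets), but the count below 0 was 8 with quantile normalization and 5 to 9 without single arrays. Microglial markers had 6 of 9 below 0 and a median of -0.26, with CA0 replicate 3 the highest sum at 4866 units against 3142 and 3173 on the other CA0 arrays and 2863 to 3319 in CA5. Without that array the microglial median was -0.09. Oligodendrocyte markers had 8 of 9 below 0 and overlapping sums (29098 to 40384 against 24987 to 36513). Without single arrays 4 to 9 of the 9 were below 0, and their median of -0.18 ranged from -0.35 to 0.042. MBP itself was at -0.14 ± 0.22 on its bright probe set, while 2 dimmer probe sets gave 0.52 ± 0.23 and 0.69 ± 0.27.

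Blood markers and the summed choroid plexus and ependyma genes overlapped between the groups, whereas the dim TTR did not. HBB, a globin gene of red cells, read 929, 792 and 816 units in CA0 and 871, 840 and 1035 in CA5, and the summed red cell markers overlapped. Of 12 white blood cell genes on the array 11 lay below the filter, among them PTPRC, CD3D and S100A8, and the sum of all 12 was 228 to 302 units in CA0 and 210 to 239 in CA5. Meningeal and fibroblast genes split evenly, 4 above and 4 below 0. TTR, a defining gene of the choroid plexus, was under the filter with 1.26, 1.40 and 1.72 units in CA0 and 44.8, 17.8 and 54.7 in CA5. The groups were apart at levels like those of the dim GGA2 probe set, and the difference was not tested. The sum of the 3 choroid plexus and ependyma genes on the array was 227 to 496 units in CA0 and 300 to 465 in CA5. Of the 2 tested members, 1 lay above 0 and 1 below. On the other 24 arrays TTR had a median of 7.72 units and reached 11962.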

How the data were processed

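Values were the intensities that the authors deposited, 1 per probe set and array on a linear scale. Per the submitters' processing notes they came from GCOS, with version and signal algorithm not given in the sources used. The trimmed mean was 300.05 to 300.06 on each array. Control probe sets (124, AFFX) were left out, and of the remaining 23999 those with a mean log2(intensity + 16) over 30 arrays under the 30th percentile (intensity 29.5) were not tested. Symbols came from the platform annotation: 10110 probe sets had 1, 157 several and 13732 none. By gene ID, 9973 of the former matched the RefSeq table, 0 with another symbol. The test was limma 3.58.1 (R 4.3.3), fitted once to the means of all 10 groups (20 residual degrees of freedom) with an intensity trend, two-sided, with Benjamini-Hochberg adjustment over 16799 probe sets. The script was tested on simulated data. Errors of log2 differences are standard errors. Array number, 3 per group, limits the precision. The limma p-values set each difference against a spread within groups that was estimated from all 10 groups, not from the 6 animals alone. With CA0 and CA5 fitted alone, the smallest limma adjusted p was 0.9999 in place of 0.086.

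The 16 gene lists, 11 marker lists, members and rules were chosen with earlier results of these data known. In a list, the probe set with the highest mean stood for a gene, whereas the shares set beside the lists count all probe sets. With 1 probe set per gene, the CA5 arrays lay apart from CA0 on the higher side for 181 of 5797 genes. On the lower side they did so for 218. Lists are described by counts and medians, with no set test. Genes named were the 12 higher and 12 lower in CA5 with the smallest p among single-symbol probe sets whose arrays did not overlap, the 3 smallest p of all, the 4 smallest p of each gene list and a fixed set of early, stress and marker genes. Others were named as members of a marker list or, where stated, after their values were seen, as were those that passed in SAL30 or the longer arrests. CA5 is shared by both of those comparisons. The alternatives were other pseudocounts (1, 64), filters (none, 50th percentile), quantile normalization, median centring, the compared groups alone, weighted arrays, no trend, a block for the replicate number and each array left out.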

Additional observations from a re-analysis of the deposited data

How the results depend on the processing

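For CA5 against CA0, 0 probe sets passed in every setting run except a pseudocount of 1, with 2 (the unnamed Ssc.17849.1.A1_at and GGA2), and CA0 replicate 3 left out, with 1 (Ssc.17849.1.A1_at); without single arrays the count ranged from 0 to 1. For CA20 and CA30 against CA5 it was 0 when the compared groups were fitted alone and 1 to 2 without single arrays (2 without CA5 replicate 3). For SAL30 against CA5 it was 16 in the groups alone and 24 to 53 without single arrays. Of 98 named probe sets, 81 kept the sign of their difference throughout and 17 did not.

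Without single arrays the log2 difference ranged from -0.0039 to 0.38 for TOLLIP, -0.54 to 0.0023 for P2RY12, -0.060 to 0.20 for TRPM7, -0.051 to 1.04 for AQP1, -0.95 to 0.12 for HSP70.2, -0.61 to 0.0066 for DNAJB1, -0.23 to 0.034 for PDE9A, -0.0032 to 0.12 for CAMK2B, -0.20 to 0.023 for AP2S1, -0.024 to 0.88 for EGR1, -0.33 to 0.33 for HMOX1, -0.21 to 0.74 for CXCL2, -0.059 to 0.49 for PTGS2, -0.095 to 0.20 for VEGFA, -0.27 to 0.031 for the bright GGA2 probe set, -0.041 to 0.19 for GGA3 and -0.21 to 0.090 for GFAP. List medians ranged from 0.027 to 0.33 for immediate early transcription factors (0.31 with all probe sets of each gene), 0.037 to 0.20 for ion pumps, -0.10 to 0.034 for ATP buffering, -0.13 to -0.033 for oxidative stress and -0.063 to 0.034 for nitric oxide. Of 23 lists with at least 4 genes tested, 13 medians had both signs without single arrays, and 3 changed sign under another normalization. The cause was not tested.

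The replicate numbers in the titles were tried as a block. Same-numbered CA0 and CA5 arrays correlated at 0.31, -0.014 and 0.071 in their deviations from the group means, which is not over 0.1 for every pair, and CA0 replicates 2 and 3 correlated best with another number, so pairing was not shown. In the early genes, replicate 1 was most often brightest and replicate 3 dimmest in both groups. The 3' to 5' ratio rose from replicate 1 to replicate 3 in both groups. With the replicate block 0 probe sets passed in CA5 against CA0, 1 in CA20 and CA30 against CA5 and 34 in SAL30 against CA5. Depth is not defined for intensities: dim probe sets such as GGA2 and OPRM1 lie near background, and their fold on the log2(intensity + 16) scale depends on the pseudocount.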
